A study of Mus musculus with 4 samples.

Results

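The genes described here are the mouse adaptors of the Kelch-like (Klhl), Kelch-domain (Klhdc), Kelch-and-BTB (Kbtbd), BTB-domain (Btbd) and potassium-channel-tetramerisation-domain (Kctd) families, chosen by symbol alone. A member is a protein-coding gene in GENCODE M21 whose symbol begins with 1 of these 5 prefixes followed by a digit, and 84 of the 25261 gene identifiers in the files were members. GENCODE M21 lists 120 such genes; the other 36, of which 30 are Btbd35f copies, were not analysed here. The cells were adult neural stem cells from C57BL/6 mice aged 8 weeks. RNA sequencing compared cells infected with a lentivirus that expressed a scramble hairpin (ctrl, n = 2 libraries) with cells whose lentivirus expressed a hairpin against mouse Ogt (shOGT, n = 2). All 4 libraries thus come from infected cells, and Ogt encodes O-GlcNAc transferase, which modifies serines and threonines of intracellular proteins with a sugar. No label states that replicates are separate cultures, so the p-values reflect the spread of these libraries alone, and that spread may be technical.

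Many of these proteins choose what a cullin-RING ubiquitin ligase marks. The BTB fold of a Klhl, Kbtbd, Btbd or Kctd protein binds the scaffold cullin 3. The kelch repeats or another domain bind the substrate, and Rbx1 recruits an E2 enzyme that carries ubiquitin. Klhdc proteins have kelch repeats without a BTB fold, and several of them work with cullin 2 to recognise the last residues of a protein. Not every member is known to act in a ligase: Kctd8, Kctd12 and Kctd12b are best known as auxiliary subunits of the GABAB receptor. In dividing cells such adaptors act on mitotic kinases, on RhoA and on Hedgehog signalling, and in neurons on receptors and dendrites.

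The deposited signal per gene behaves as reads divided by 1 factor per library, and the steps between values imply 15697508 to 17753976 reads assigned to genes per library. A fold change is shOGT over ctrl on the log2(value + 1) scale, with limma's standard error. A gene is called higher or lower at a Benjamini-Hochberg adjusted p under 0.05 over all 21829 genes tested. Levels are compared between genes only after division by the length of their merged exons.

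Ogt, the targeted gene, stood at 4112 and 4138 in ctrl and at 3379 and 3516 in shOGT (log2 fold change -0.26 ± 0.04, limma adjusted p = 0.00876), both shOGT libraries below both ctrl libraries. Of the marker lists, all 12 neural stem cell genes were present, summing to 144001 and 147894 in ctrl and to 135347 and 140513 in shOGT. The 10 oligodendrocyte lineage genes summed to between 58457 and 60708 in the 4 libraries (2 called lower, Pdgfra and Gpr17), and the mature oligodendrocyte markers Mog and Mag had means of at most 2. The 10 neuronal genes summed to 16814 and 17398 in ctrl and to 18855 and 19079 in shOGT. Most of that sum was Map2, called higher (15469 and 15954 against 17564 and 17269). Of the 10, 8 had a positive and 2 a negative log2 fold change. Dcx was 1 of the latter (40.9 and 66.5 against 19.1 and 29.2, not called). The 8 astrocyte genes summed to 31662 to 32359 in ctrl and 28868 to 30880 in shOGT (3 called lower). Markers of microglia (6 of 9 in the files) summed to 8.93 to 13.2, and those of endothelium, pericytes and fibroblasts (8 of 11) to 89.8 to 134. The part of these marker differences in the results below was not tested. In bulk samples, fewer cells of a type and less RNA per cell cannot be told apart.

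Of the 84 members, 81 reached a value of 1 in 2 or more libraries and were tested. Klhdc7b, Klhl33 and Kbtbd12 did not, and their values did not exceed 2.99 in any library. Between ctrl and shOGT, 4 members were called higher, Btbd11, Klhdc7a, Klhl24 and Klhdc2, where 1.96% of all genes tested were, and 2 were called lower, Kctd13 and Kctd12b, where 2.90% were. The 6 calls are 7.41% of the members tested, against 4.86% of all genes. Among genes with a mean of at least 50 the shares were 9.23% of 65 members and 8.56% of 12200 genes, so that the share called lay near the background. The median log2 fold change was 0.02 over the members and 0.00 over all genes. All members together took 0.335% and 0.334% of the library total in ctrl and 0.341% and 0.342% in shOGT. Both shOGT values lay above both ctrl values in 24 members and below them in 25, which is 60.5% of those tested; over all genes the shares were 25.0% above, 24.3% below and 49.3% in either direction. Among genes with a mean of at least 50 the groups did not overlap in 61.5% of the members and 58.8% of all. The calls depended on the settings. With any 1 library left out and the same genes tested, no member passed in limma (5 to 11 of the members had an unadjusted p under 0.05 in each direction), nor did any other gene. With all 4 libraries, none of the 6 passed without the filter, without the variance trend or with quantile normalization (members at an unadjusted p under 0.05: 10 higher and 8 lower, 6 and 6, and 11 and 8). When genes had to reach 10 in 2 libraries, all 6 were called, and Btbd11, Klhdc7a and Kctd13 were still called with any 1 library left out, while Klhl24, Klhdc2 and Kctd12b were not without ctrl 1 or without ctrl 2. The signs of the 6 were the same in all 18 alternative settings tried.

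**Figure D1:**
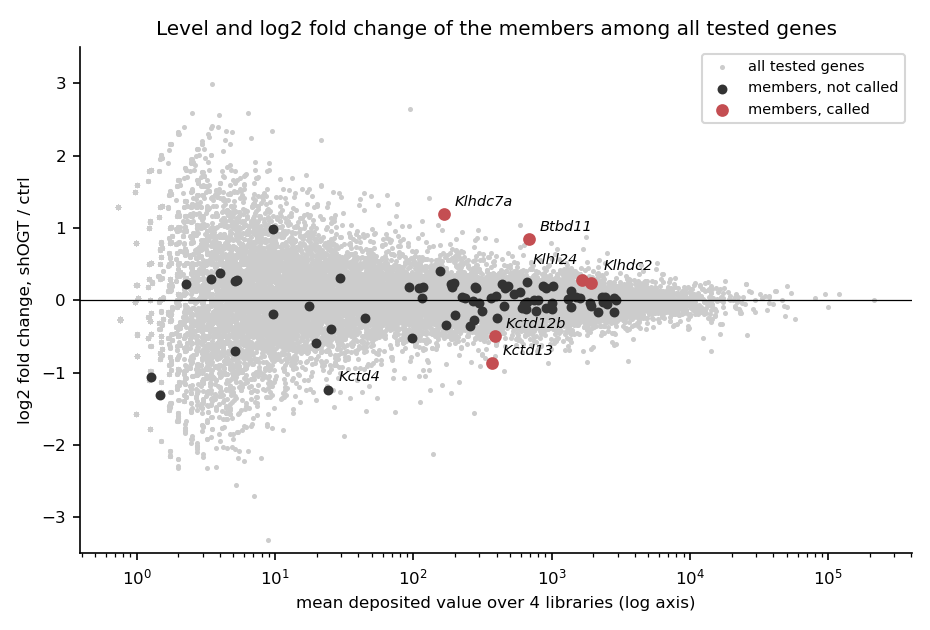
Log2 fold change of shOGT over ctrl (y axis) against the mean deposited value over the 4 libraries (x axis, log scale). Grey points are all tested genes, black points the 75 members that were not called and red points the 6 that were. Klhdc7a at 1.19 and Btbd11 at 0.85 lie above 0 and Kctd13 at -0.87 and Kctd12b at -0.50 below it; Kctd4, at -1.24 with a mean of 24.1, was not called.

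Btbd11, an ankyrin-repeat and BTB protein known from the excitatory synapses of inhibitory interneurons, was the member with the smallest p. It lies on chr10:85386814-85660292, plus strand, on GRCm38. Its values were 482 and 506 in ctrl and 867 and 910 in shOGT. Both shOGT libraries thus stood far above both ctrl libraries, and the gap was many times the spread within either group. The mean rose by 79.8%, from 494 ± 17.1 to 888 ± 30.5 (SD, n = 2 each); the log2 fold change was 0.85 ± 0.07 (limma adjusted p = 0.000613). Leaving out a library gave 0.81 to 0.88.

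Klhdc7a encodes a kelch-domain protein whose substrates are little known. The gene lies on chr4:139960220-139968026, minus strand, and 95 bases of its exons overlap Mir2139. Its values were 91.7 and 111 in ctrl and 258 and 207 in shOGT, with no overlap but with a wider spread in shOGT than for Btbd11. The mean rose by 130%, from 101 ± 13.7 to 233 ± 36.0, the largest change among the called members (log2 fold change 1.19 ± 0.15, limma adjusted p = 0.00373). Leaving out a library gave 1.03 to 1.35.

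The gene that fell most among the called members was Kctd13, whose product pairs cullin 3 with the small GTPase RhoA. It lies on chr7:126928879-126945631, plus strand. Its values were 492 and 467 in ctrl and 250 and 272 in shOGT. Both shOGT values lay well below both ctrl values, with little spread within either group. The mean fell by 45.5%, from 479 ± 17.3 to 261 ± 16.0, a log2 fold change of -0.87 ± 0.09 (limma adjusted p = 0.00145). Exons of Kctd13 overlap those of Asphd1, on the opposite strand, and of Gm21984, by at most 199 bases, so that reads there may have been counted for either gene. Asphd1 stood at 2.99 and 2.98 in ctrl and at 13.8 and 10.4 in shOGT (not called, limma adjusted p = 0.0837), and Gm21984 stayed under 3 in every library.

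The promoters of the 3 members with the largest called changes are shown so that their sequence can be set beside these opposite changes. Each is RefSeq's window of 250 bases before to 50 after a listed start, on GRCm38.p6, read 5′ to 3′ on the gene's strand. Capitals mark the GC box GGGCGG or its reverse complement CCGCCC, the element bound by Sp factors. The windows are chr10:85386564-85386863 (plus strand) for Btbd11, chr4:139967977-139968276 (minus strand) for Klhdc7a and chr7:126928629-126928928 (plus strand) for Kctd13.
Btbd11: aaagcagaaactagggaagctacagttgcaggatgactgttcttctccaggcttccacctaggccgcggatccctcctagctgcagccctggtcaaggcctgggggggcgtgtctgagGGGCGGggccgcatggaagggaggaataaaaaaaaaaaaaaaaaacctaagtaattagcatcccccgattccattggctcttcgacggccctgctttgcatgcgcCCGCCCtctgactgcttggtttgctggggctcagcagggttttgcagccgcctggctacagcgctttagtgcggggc
Klhdc7a: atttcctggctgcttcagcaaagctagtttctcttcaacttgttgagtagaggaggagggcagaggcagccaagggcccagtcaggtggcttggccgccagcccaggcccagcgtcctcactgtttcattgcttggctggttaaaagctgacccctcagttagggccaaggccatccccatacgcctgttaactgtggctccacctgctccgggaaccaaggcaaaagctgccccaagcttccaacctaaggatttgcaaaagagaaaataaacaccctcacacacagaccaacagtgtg
Kctd13: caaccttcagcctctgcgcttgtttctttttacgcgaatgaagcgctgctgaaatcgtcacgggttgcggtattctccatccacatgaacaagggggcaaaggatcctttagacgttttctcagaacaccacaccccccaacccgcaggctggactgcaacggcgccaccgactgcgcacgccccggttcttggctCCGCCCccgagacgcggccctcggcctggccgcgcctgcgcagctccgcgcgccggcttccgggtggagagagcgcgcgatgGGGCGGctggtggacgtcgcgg
The GC box stands 2 times in the Btbd11 window, a gene called higher, and 2 times in that of Kctd13, called lower, and not in that of Klhdc7a. It occurred in 64.5% of the 93 promoter windows listed for 68 members and in 35.7% of all 32851 windows. The median GC content of those windows was 59.7% for the members and 52.7% for all. The RBPJ core TGGGAA (reverse complement TTCCCA), through which Notch acts, stood in 20.4% of member windows and 25.6% of all, and the E-box CACGTG in 6.45% and 7.15%. Neither word stands in the 3 windows printed, nor in that of Klhdc2, which also lacks the GC box. A match is a description of letters and not a bound site.

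Klhdc2, Klhdc1, Klhdc3 and Klhdc10 are receptors that recognise the C-terminal ends of proteins, Klhdc2 those that end in diglycine. Only Klhdc2 was called. Its values were 1732 and 1788 in ctrl and 2108 and 2044 in shOGT, so that the groups did not overlap. The mean rose from 1760 ± 39.1 to 2076 ± 45.7 (log2 fold change 0.24 ± 0.05, limma adjusted p = 0.0225). The gene lies on chr12:69296681-69310687 and shares up to 166 exon bases with Nemf, which had a log2 fold change of 0.06 ± 0.05 and was not called. Klhdc1 had values of 78.8 and 96.2 in ctrl against 103 and 94.3 in shOGT. Klhdc3 had 1415 and 1523 against 1521 and 1505, and Klhdc10 had 2335 and 2244 against 2306 and 2429. The groups overlapped for all 3, with log2 fold changes of 0.18 ± 0.17, 0.04 ± 0.05 and 0.05 ± 0.05. Whether Klhdc2 differed from these relatives in its change was not tested. Of the other Klhdc genes, Klhdc4, Klhdc8a, Klhdc8b and Klhdc9 were not called, with log2 fold changes of 0.00, -0.25, 0.19 and 0.30.

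Klhl24, an adaptor that controls keratin turnover in skin and was first found as a partner of kainate receptors, was the sole Klhl gene called. It lies on chr16:20097542-20129221, plus strand. Its values were 1546 and 1484 in ctrl and 1789 and 1871 in shOGT, without overlap. The mean rose by 20.8%, from 1515 ± 43.7 to 1830 ± 57.9 (log2 fold change 0.27 ± 0.05, limma adjusted p = 0.0171). Grik2, a kainate receptor subunit, had a log2 fold change of -0.05 ± 0.13 and was not called.

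**Figure D2:**
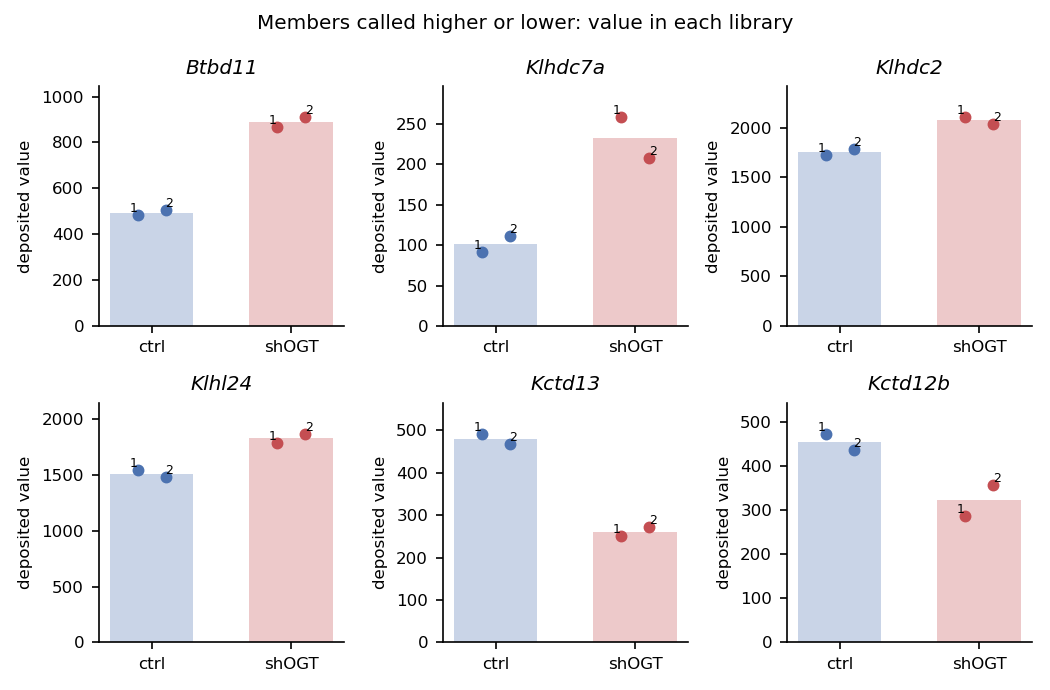
Deposited value of each of the 6 called members in the 4 libraries (points, with the replicate number) and the group mean (bars, y axis from 0), ctrl in blue and shOGT in red. In every panel both shOGT points lie on one side of both ctrl points; Btbd11 goes from 482 and 506 to 867 and 910, Kctd13 from 492 and 467 to 250 and 272.

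Among the auxiliary subunits of the GABAB receptor, which tie the receptor to G protein beta-gamma and shape its response, the X-linked gene Kctd12b was called lower. It lies on chrX:153685154-153696391, minus strand. Its values were 474 and 437 in ctrl and 288 and 358 in shOGT, with shOGT 1 the lower of the latter. The mean fell by 29.1%, from 456 ± 25.6 to 323 ± 49.6 (log2 fold change -0.50 ± 0.11, limma adjusted p = 0.0330). Without shOGT 1 the log2 fold change was -0.34 and without shOGT 2 it was -0.66. Its relative Kctd12 stood at 999 and 1026 in ctrl and 890 and 1085 in shOGT, where the groups overlapped. Its log2 fold change was -0.04 ± 0.09. Of the 6057 exon bases of Kctd12, up to 3805 are shared with Gm26778 or Mir5130. Kctd8 was low, at 7.54 to 11.9. The receptor subunits were not called: Gabbr1 had a log2 fold change of -0.01 ± 0.05 and Gabbr2 0.44 ± 0.22.

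Kctd13 has close relatives that also bring RhoA to cullin 3. Kctd10 had values of 663 and 696 in ctrl and 610 and 633 in shOGT, and Tnfaip1, not a member by its symbol, had 1787 and 1680 against 1642 and 1612. In both genes the 2 shOGT values lay below the 2 ctrl values, but neither was called (log2 fold changes -0.13 ± 0.07 and -0.09 ± 0.05, limma adjusted p = 0.329 and 0.372). The 95% interval of Kctd13, -1.07 to -0.68, did not meet that of Kctd10, -0.28 to 0.02. Whether Kctd13 differed from Kctd10 in its change was not tested. Exons of Kctd10 overlap those of Myo1h. Rhoa itself had a log2 fold change of -0.05 ± 0.05.

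**Figure D3:**
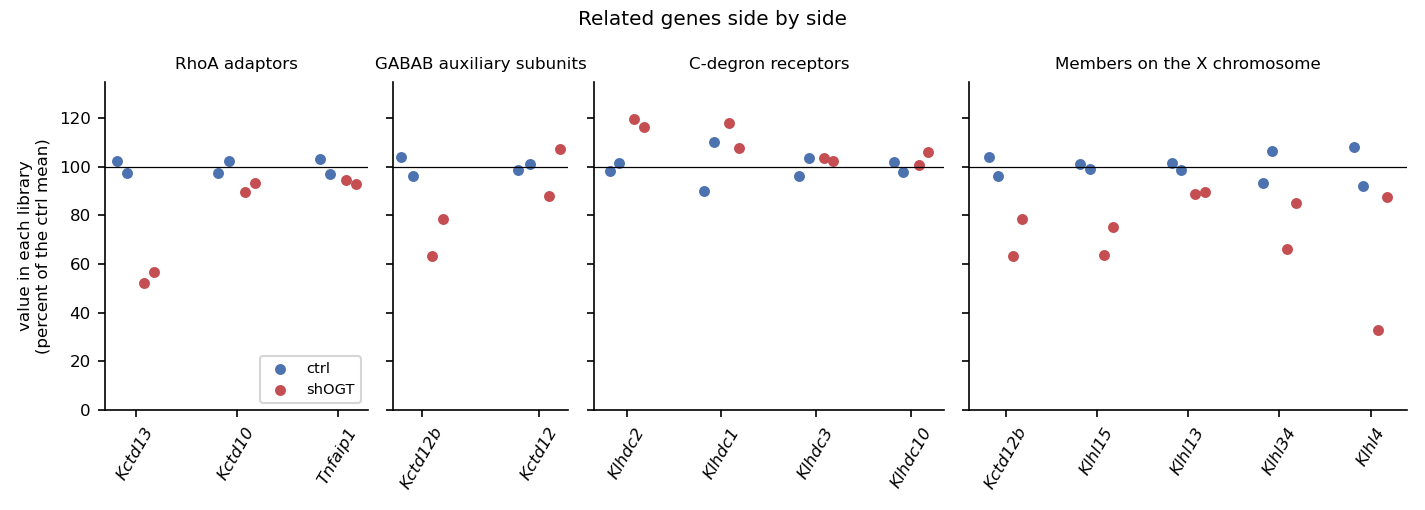
Value in each library as a percent of the gene's ctrl mean (y axis from 0), ctrl in blue and shOGT in red. Panels show the RhoA adaptors, the GABAB auxiliary subunits, the Klhdc receptors of C-terminal ends and the 5 members on the X chromosome. Kctd13, Kctd12b and Klhdc2 stand apart from ctrl, while Kctd12, Klhdc1, Klhdc3 and Klhdc10 overlap it; all 5 X-linked members have both shOGT points below both ctrl points.

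The windows below hold a word that stands in the 3′ UTR of both members called lower, and a second word studied with it. They are shown for all 5 called members that carry either, 3 of which were called higher. The words GCTATC and GTACCC were taken from an earlier look at these data, so that their share in called genes is no independent result. Each line is a 24-base window on GRCm38, 5′ to 3′ on the gene's strand, with the word in capitals.
Kctd13, chr7:126945425-126945448: aaggacagtGCTATCagccacact
Kctd13, chr7:126945545-126945568: gccagctctGCTATCgtgatctgt
Kctd12b, chrX:153688419-153688442: atgtaccttGCTATCtgtatttgt
Kctd12b, chrX:153685687-153685710: tagaatgttGCTATCacctcttac
Klhdc7a, chr4:139960913-139960936: agagaccacGCTATCctggaggga
Klhdc7a, chr4:139962802-139962825: gagtcacagGTACCCtgtccatgt
Btbd11, chr10:85659952-85659975: gtgtgcaagGTACCCagtctgagt
Klhl24, chr16:20128943-20128966: gtctccagaGCTATCgaaggcttt
Kctd13 holds GCTATC 2 times in the 510 bases of its longest annotated 3′ UTR, and Kctd12b 2 times in 3659 bases. Klhdc7a, called higher, holds 1 of each word in 5093 bases, and of the others called higher Klhl24 holds GCTATC and Btbd11 the other word. On its own, GCTATC stood in 17.6% of the 15149 tested genes with a 3′ UTR, in 37.1% of genes called lower and 15.6% of genes called higher, in 2 of 2 members called lower and in 2 of 4 called higher. One or both words stood in the 3′ UTR of 31.9% of these tested genes, of 57.0% of genes called lower and of 31.8% of genes called higher. Of members they stood in 32 of 80, which is 40.0%, in 2 of 2 called lower and in 3 of 4 called higher. The members called higher had a median 3′ UTR of 3518 bases, the members called lower one of 2085, and all tested genes one of 1312. The part of these words in the changes was not tested.

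None of the other Kctd genes was called. Of the 21 tested, Kctd13 and Kctd12b included, 15 had a negative log2 fold change; both shOGT values lay below both ctrl values in 9 and above them in 1, where the shares among all genes were 24.3% and 25.0%. The family's median was -0.08, with 5 genes lower and 0 higher at an unadjusted p under 0.05. Over all 21829 genes tested, 2245 were lower and 1969 higher at that cut. Whether the family differed from all genes was not tested. Kctd4 came nearest to the threshold: it stood at 33.9 and 34.7 in ctrl and at 13.8 and 14.1 in shOGT, with hardly any spread within a group (log2 fold change -1.24 ± 0.30, limma adjusted p = 0.0513). Its p passed in 6 of the 18 alternative settings. Kctd15 and Kctd1 inhibit the transcription factor AP-2. Kctd15 had 283 and 298 in ctrl against 238 and 215 in shOGT (-0.36 ± 0.10, limma adjusted p = 0.0779), and Kctd1 overlapped between groups (-0.08 ± 0.10).

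Kctd17, Kctd5 and Kctd2, which bind G protein beta-gamma, had log2 fold changes close to 0. Kctd17 had 2292 and 2420 in ctrl and 2350 and 2288 in shOGT, Kctd5 1985 and 1951 against 1852 and 1875, and Kctd2 680 and 627 against 641 and 630. The log2 fold changes were -0.02 ± 0.05, -0.08 ± 0.05 and -0.04 ± 0.07. The suppressors of Hedgehog signalling, which lead to the loss of Hdac1, had values on both sides: the log2 fold change was 0.03 for Kctd11, 0.18 for Kctd21 and -0.21 for Kctd6, none called. Kctd18 (427 and 445 against 337 and 403) and Kctd3 (1029 and 1061 against 942 and 986), a partner of the channel Hcn3, had lower values in both shOGT libraries and were not called (limma adjusted p = 0.210 and 0.301). Of the 12973 exon bases of Kctd18, up to 2455 are shared with Sgo2a. Kctd20, Kctd7 and Kctd9 had log2 fold changes of 0.03 to 0.06. Kctd14 and Kctd19 were low, with at most 20.7 in any library.

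**Figure D4:**
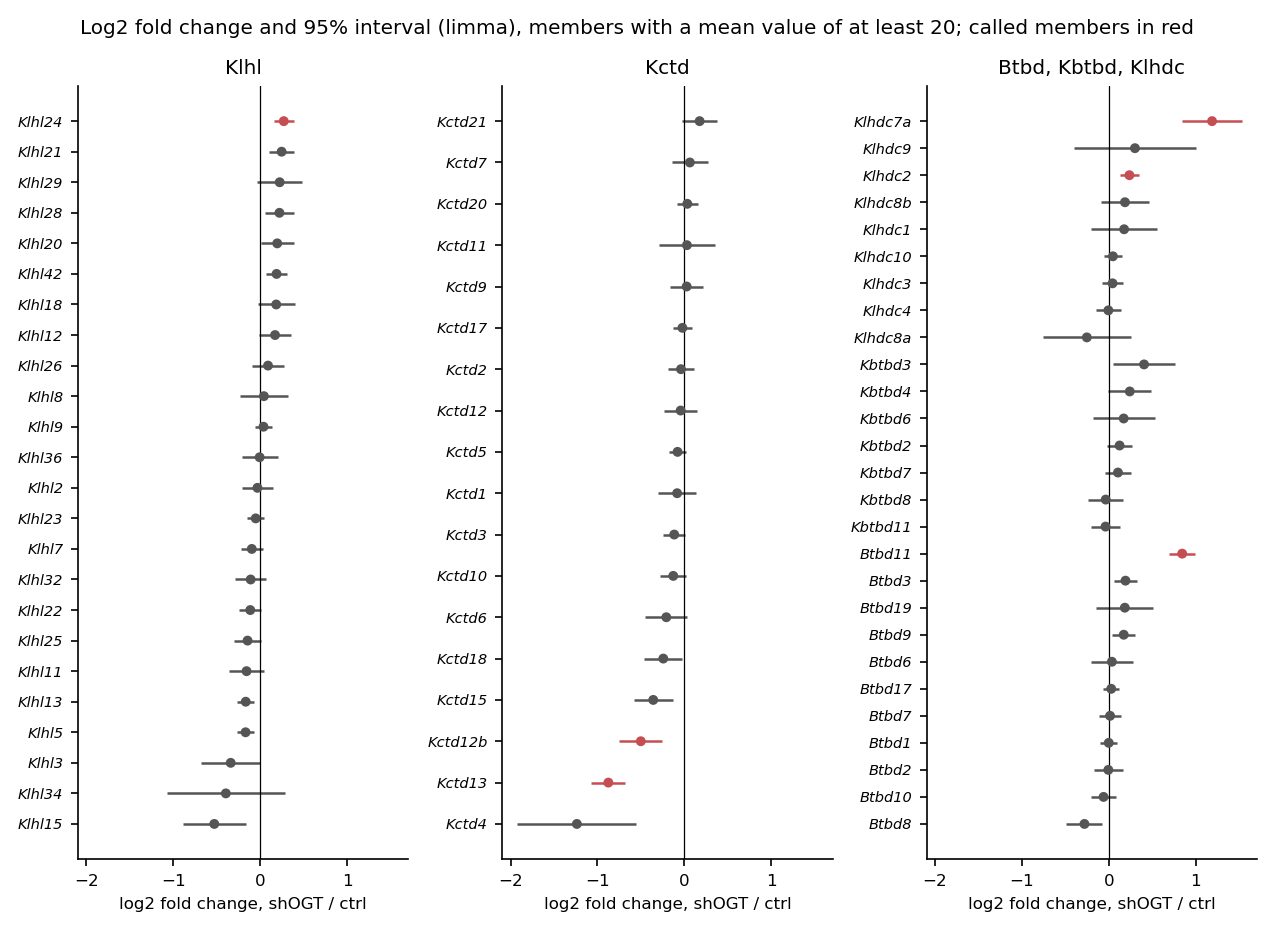
Log2 fold change of shOGT over ctrl (x axis) with its 95% interval from limma for the 69 members with a mean value of at least 20, in 3 panels by family; called members are red. In the Kctd panel most points lie left of 0, and in the Klhl panel they lie on both sides; Kctd4 has a wide interval, from -1.92 to -0.55.

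Of the Klhl adaptors that guide mitosis, none was called (limma). At an unadjusted p under 0.05, 2 were higher and 1 lower. Of all 12200 genes with a mean of at least 50, 1592 were higher and 1966 lower at that cut. In all 6 adaptors the groups did not overlap. That was so for 58.8% of all genes with a mean of at least 50 and for 63.9% of those with a mean of at least 500. Klhl9, Klhl13 and Klhl21 act with cullin 3 on Aurora B. Klhl21 had 619 and 603 in ctrl and 733 and 719 in shOGT (log2 fold change 0.25 ± 0.06, limma adjusted p = 0.0575), whereas Klhl13 had 2310 and 2242 against 2019 and 2040 (-0.17 ± 0.04, limma adjusted p = 0.0684). Klhl9, the close relative of Klhl13, had 2370 and 2396 against 2436 and 2460 (0.04 ± 0.04). These partners of Aurora B thus had values on different sides of ctrl. Klhl42, which targets the microtubule-severing katanin, had 954 and 964 against 1112 and 1077 (0.19 ± 0.05, limma adjusted p = 0.0862). Klhl18, which acts on Aurora A, had 249 and 271 against 293 and 298, and Klhl22, which acts on Plk1 and Depdc5, 936 and 968 against 891 and 870. Their log2 fold changes were 0.19 ± 0.09 and -0.11 ± 0.06.

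Klhl5 stood at 3066 and 2926 in ctrl and 2726 and 2611 in shOGT. Its log2 fold change of -0.17 ± 0.05 missed the threshold (limma adjusted p = 0.0713). Klhl40 and Klhl41, which stabilise thin filaments in muscle, were near the floor, with at most 14.1. The pair that turns over WNK kinases had log2 fold changes of -0.03 ± 0.08 for Klhl2 and -0.34 ± 0.15 for Klhl3, neither called. Klhl12, which monoubiquitinates Sec31a and acts on Dishevelled, and Klhl20, which acts on Dapk1 and Pml, had higher values in both shOGT libraries (0.17 ± 0.08 and 0.20 ± 0.09, not called). So did Klhl28 (0.22 ± 0.07) and Klhl29 (0.23 ± 0.11). Klhl25 (769 and 839 against 701 and 754), Klhl7 (1475 and 1399 against 1385 and 1305) and Klhl11 had lower values in both, and were not called. Klhl23 (2510 and 2595 against 2418 and 2512), Klhl32 (673 and 587 against 570 and 597), Klhl26 (488 and 556 against 562 and 547), Klhl36 and Klhl8 overlapped between the groups. Klhl10 (0.59 lower on the log2 scale, at 12.8 to 24.9), Klhl30 and Klhl35 were low. Over the 30 Klhl genes tested, both shOGT values lay above both ctrl values in 11 and below in 12, against 25.0% and 24.3% of all genes, and the median was -0.02.

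The 5 members on the X chromosome all had both shOGT values below both ctrl values. Besides Kctd12b and Klhl13 these are Klhl15, which targets a regulatory subunit of the phosphatase PP2A (117 and 114 against 73.4 and 86.7, log2 fold change -0.53 ± 0.16, limma adjusted p = 0.102), Klhl34 (26.9 and 30.8 against 19.1 and 24.5) and Klhl4 (at most 6.98). Their median was -0.50, that of the 76 autosomal members 0.03. Among all X-linked genes with a mean of at least 50, the shOGT values lay below ctrl in 166 and above in 81 of 425, and the median was -0.04. Ogt is X-linked as well. Whether these 5 genes differ from other X-linked genes was not tested.

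None of the 8 Kbtbd genes tested was called (limma), and their median was 0.15. At an unadjusted p under 0.05, 1 was higher, as were 1969 of all 21829 genes tested. In 4 of them both shOGT values lay above both ctrl values, and in 0 below, where the shares over all genes were 25.0% and 24.3%. Kbtbd2, which lets cullin 3 remove the PI3K subunit p85 alpha, had 1288 and 1362 in ctrl and 1366 and 1528 in shOGT (0.12 ± 0.06, limma adjusted p = 0.326). Pik3r1, the gene of p85 alpha, was called lower, from 5520 and 5503 to 4333 and 4029 (-0.40 ± 0.04, limma adjusted p = 0.00196). Kbtbd3 had 143 and 126 against 154 and 206 (0.41 ± 0.16), Kbtbd4 188 and 172 against 214 and 212 (0.24 ± 0.11), and Kbtbd7 551 and 579 against 595 and 622 (0.11 ± 0.07). Of the 3139 exon bases of Kbtbd4, up to 1657 are shared with Ndufs3 or Ptpmt1. Kbtbd7 and its neighbour Kbtbd6 (0.17 ± 0.16) together target the Rac activator Tiam1. Kbtbd8, which modifies Nolc1 and Tcof1 in neural crest formation, and Kbtbd11 (1930 and 1919 against 2042 and 1724) overlapped between the groups, each with a log2 fold change within 0.04 of 0. Kbtbd13 was low, at 1.89 to 3.19.

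Apart from Btbd11, the Btbd genes were not called. Btbd3, which orients dendrites toward active axons, had 814 and 813 in ctrl and 946 and 914 in shOGT (0.19 ± 0.06, limma adjusted p = 0.0975). Btbd9 had 840 and 863 against 982 and 938 (0.17 ± 0.06, limma adjusted p = 0.138), and Btbd8 had 296 and 309 against 243 and 255 (-0.28 ± 0.09, limma adjusted p = 0.130). Btbd1 and Btbd2, which bind topoisomerase I, had log2 fold changes of 0.00 ± 0.04 and 0.00 ± 0.08. Btbd1 stood at 2983 and 2856 against 2905 and 2935, and Btbd2 at 812 and 795 against 860 and 746. Btbd17 (2800 and 2805 against 2896 and 2824), Btbd7 (1293 and 1317 against 1272 and 1370), Btbd10 (660 and 633 against 618 and 623), Btbd6 and Btbd19 had log2 fold changes between -0.06 and 0.19. Btbd16 and Btbd18 were near the floor.

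Per kilobase of merged exon, the most abundant members were Kctd17 at 919.9, Btbd17 at 888, Btbd1 at 841, Klhl9 at 579 and Klhdc3 at 575. None of these 5 was called. The called members lay lower, with Klhdc2 at 353, Klhl24 at 164, Kctd13 at 149, Kctd12b at 79.4, Btbd11 at 68.9 and Klhdc7a at 21.4. Across the 4 libraries the per-kilobase values of Kctd17 and Btbd17 overlapped, as did those of Klhl9 and Klhdc3.

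In the machinery that these adaptors serve, 2 genes were called, a share of 4.76% against 4.86% of all genes. Of 42 genes for cullins, RING partners, the NEDD8 pathway and the COP9 signalosome, 1 was called higher, Cul9 (831 and 825 in ctrl, 962 and 1014 in shOGT, log2 fold change 0.25 ± 0.06, limma adjusted p = 0.0403). One was called lower, Rbx1, the RING subunit shared by most cullin ligases (2393 and 2353 against 2006 and 2124, -0.20 ± 0.05, limma adjusted p = 0.0437). The median was -0.02. Cul3, the scaffold of the BTB adaptors, had 2350 and 2650 against 2695 and 2803 (0.14 ± 0.06). Cul2, the scaffold of several Klhdc receptors, had 1127 and 1164 against 1025 and 1042 (-0.15 ± 0.05). Neither was called. Nedd8, which activates cullins, had 2263 and 2276 against 1990 and 2061 (-0.16 ± 0.04, limma adjusted p = 0.0712).

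Among 26 BTB or kelch proteins that are named otherwise, such as Keap1, Spop and Enc1, 1 was called lower, Rhobtb3 (2775 and 2712 against 2355 and 2444, -0.19 ± 0.04, limma adjusted p = 0.0379), a share of 3.85%, and the median was 0.01. Of 33 reported substrates and partners tested, 2 were called lower, Pik3r1 and the mitotic kinase Aurkb (1658 and 1707 against 1429 and 1321, -0.29 ± 0.06, limma adjusted p = 0.0184). These are 6.06% of the list, and 4.86% of all genes were called in either direction. The list's median was 0.05. The files measure RNA, and substrates of a ligase are controlled as proteins, which were not measured.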

How the data were processed

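Total RNA of lentivirus-infected adult neural stem cells was sequenced, 4 libraries in 2 groups taken from the labels' treatment field. The deposited files hold 1 signal value per gene; the submitters' processing notes name the build mm10, and aligner, counter, annotation, strand setting and normalization were not given in the sources used here. Within 0.01 of a step, all deposited signal values were multiples of 1 step per library, 0.997 and 0.992 in ctrl and 1.06 and 0.943 in shOGT, and values were used as deposited, with no count model. A chi-square over genes with at least 20 implied reads gave 2.02 per gene between ctrl libraries, 3.33 between shOGT libraries and 7.38 to 8.13 between groups, so that replicates were counted separately.

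Symbols, positions and exon lengths came from GENCODE M21 on GRCm38 (25250 identifiers matched, 11 did not). Log2(value + 1) of genes with at least 1 in 2 libraries was tested with limma 3.58.1 in R 4.3.3, with a variance trend and Benjamini-Hochberg adjustment, and the fit was checked on simulated data. The log2(value + 1) scale understates the change of low genes. With 2 libraries a group, exact permutation cannot go below p = 0.333. Count tests had been planned for raw counts or recovered reads; they were not run, because a check of the units did not accept the ctrl values as recovered reads. Members and lists were chosen with earlier results of these data known. Named were all called members, members reaching 500 in a library or a log2 fold change of 0.5 at a mean of 20, role groups and called list genes. Exon bases are shared with another gene in 28 members, and the text does not mark each of them. Promoter windows came from RefSeq, 3′ UTRs from GENCODE. The word GTGTCAC was also counted in the 3′ UTRs and is not reported here. Alternatives varied the pseudocount, the filter, the scaling, the variance trend, the replicate block and the libraries used.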

Additional observations from a re-analysis of the deposited data

How the results depend on the processing

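The signs of the 6 called members held in all 18 alternative settings (12 chosen at the outset, 6 after seeing the data, each of the latter with a minimum of 10), and 55 of 81 members kept theirs in every setting run for them. No called value reversed. Which members passed the threshold depended on the setting: limma called 4 higher and 2 lower as reported, and Ogt passed in 8 of 18 settings.

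Without a filter, without the variance trend and with quantile normalization, 0 members were called in either direction, 0 genes in all and 0 genes of the lists of machinery, other BTB and kelch proteins and substrates; at an unadjusted p under 0.05 there remained 4302, 2763 and 3998 genes. Ogt kept log2 fold changes of -0.26, -0.26 and -0.25. With a minimum of 10, 6 members were higher and 6 lower (all genes 822 and 1133; lists 5, 2 and 6), and all 6 reported calls were among them. Equal library totals gave 593 and 585 genes, which moved the share of higher calls from 40.3% to 50.3%, and 1 and 2 genes of the first 2 lists; the members were 5 and 2. A pseudocount of 0.5 left 1 machinery gene called.

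The replicate block gave 8 members higher and 7 lower, 1007 and 1295 genes, and 5, 3 and 7 list genes. No label states that the replicate numbers pair the libraries. Across 12200 genes the ctrl 1 minus ctrl 2 differences correlated at 0.02 with the shOGT 1 minus shOGT 2 differences. That value cannot show how the libraries were made. Leaving out 1 library gave 0 calls for members, lists and all genes (2484 to 3389 genes at an unadjusted p under 0.05), with Ogt at -0.29 to -0.23. With a minimum of 10, leaving out 1 library gave 2 to 8 members higher, 1 to 8 lower, 99, 150, 1017 and 991 genes higher and 176, 179, 1318 and 1466 lower (without ctrl 1, ctrl 2, shOGT 1 and shOGT 2), 0 to 9, 0 to 3 and 1 to 8 list genes, and Ogt at -0.26 to -0.25 where it was lost; the lower ends came without ctrl 1 or ctrl 2. A minimum of 10 gave 0 calls without the variance trend (Ogt -0.26); with quantile normalization it gave 7 and 3 members, 799 and 858 genes, and 3 and 5 genes of the last 2 lists. The cause of these differences was not tested. In leave-one-out fits the lone library is assumed to vary like the other group. The count-based tests planned as alternatives were not run, since a check of the units did not accept the ctrl values as recovered reads.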

Other observations

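Other families of ligase substrate receptors, and the Zbtb genes, were taken by symbol after the data had been seen. Over all 21829 genes tested 4.86% were called, and 1969 were higher and 2245 lower at an unadjusted p under 0.05. Of 59 F-box genes (Fbxo, Fbxl and Fbxw), which serve cullin 1, limma called 1 higher and 0 lower, with a median log2 fold change of 0.04 (4 higher and 3 lower at an unadjusted p under 0.05). Of 21 SOCS-box genes (Asb and Socs), 0 were higher and 1 was lower, with a median of 0.07. Of 13 Dcaf genes, which serve cullin 4, 0 were higher and 2 lower, which is 15.4% (median 0.02), and of 40 Zbtb genes, which join the BTB fold to zinc fingers, 0 were higher and 1 lower (median 0.04). No difference between these families and the Kelch and BTB adaptors was tested.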
